A study of Rattus norvegicus with 9 samples.

Results

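The genes described here are 10 genes of the small leucine-rich proteoglycans and of joint matrix, found by symbol among 41801 listed genes, and all 10 were present in every library. They are Dcn (decorin), Bgn (biglycan), Aspn (asporin), Lum (lumican), Fmod (fibromodulin), Ogn (osteoglycin) and Chad (chondroadherin), which are the 7 small leucine-rich proteoglycans, with Prg4 (lubricin), Dpt (dermatopontin) and Eln (elastin). They were selected on earlier results of these libraries, which held levels in stromal cells and ratios between the groups with and without shock waves, so those values are given as a description, without a test. The genes were followed in single cells from tibial osteotomy tissue of male Sprague-Dawley rats aged 6 to 8 weeks. Every animal had a circular osteotomy of 3 mm at the proximal tibia and a full-thickness skin wound of 4 mm on the dorsum of the foot. The TO group received no shock waves, and its 4 libraries, in the order used below, were taken on day 2 at 0 and 4 h and on day 4 at 4 and 24 h, and are called TO 2d 0h to TO 4d 24h. The TOE group received radial extracorporeal shock wave therapy (rESWT) to the osteotomy on day 2 and again on day 4, and its 4 libraries were taken 4 and 24 h after each session, as TOE 2d 4h to TOE 4d 24h. The design names 9 rats, but the labels do not tie rats to libraries, and each condition had 1 library. The TO library of day 2 at 24 h was not analysed here, which leaves TOE 2d 24h without a TO library beside it, and TO 2d 0h is the untreated baseline. No difference between libraries has a replicate check, and a library cannot be told apart from its animal, dissection or run.

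Small leucine-rich proteoglycans are secreted proteins whose repeats bind collagen fibrils. Decorin, biglycan, fibromodulin and lumican set the spacing and width of fibrils in skin, tendon, cartilage and bone, and several of them also bind growth factors of the TGF-beta family. Chondroadherin is a matrix protein of cartilage that binds collagen and integrins. Lubricin is the boundary lubricant of joints and tendons, dermatopontin binds decorin and collagen, and elastin is the core of elastic fibres in arteries, tendon and skin.

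Promoter sequences were available for 7 of the 10 genes. In the rat assembly GRCr8 (RefSeq), the 300 bases from 250 before to 50 after the gene start are shown for the 4 of these genes whose UMIs were most concentrated in 1 stromal sub-class. Fmod (chr13:48045317-48045616, + strand) and Chad (chr10:80008795-80009094, + strand) had their highest levels in a single cluster led by Cilp2. Prg4 (chr13:65054176-65054475, - strand) and Dpt (chr13:79656091-79656390, + strand) had theirs in the fibroblast-like cells. Sequences run 5′ to 3′ along the gene. Capitals mark matches to TATANA or GGGCGG on either strand, and overlapping matches run together.
Fmod: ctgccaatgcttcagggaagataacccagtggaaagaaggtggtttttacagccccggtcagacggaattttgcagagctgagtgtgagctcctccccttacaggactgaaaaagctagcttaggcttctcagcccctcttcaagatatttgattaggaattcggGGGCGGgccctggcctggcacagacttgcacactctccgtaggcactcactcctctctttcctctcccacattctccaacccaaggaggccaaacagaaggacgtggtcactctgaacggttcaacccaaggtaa
Chad: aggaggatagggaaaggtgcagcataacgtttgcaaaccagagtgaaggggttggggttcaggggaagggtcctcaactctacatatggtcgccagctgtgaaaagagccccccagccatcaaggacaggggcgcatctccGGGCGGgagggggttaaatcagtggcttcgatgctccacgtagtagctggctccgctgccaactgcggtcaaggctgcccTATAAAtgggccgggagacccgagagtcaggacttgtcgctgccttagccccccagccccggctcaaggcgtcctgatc
Prg4: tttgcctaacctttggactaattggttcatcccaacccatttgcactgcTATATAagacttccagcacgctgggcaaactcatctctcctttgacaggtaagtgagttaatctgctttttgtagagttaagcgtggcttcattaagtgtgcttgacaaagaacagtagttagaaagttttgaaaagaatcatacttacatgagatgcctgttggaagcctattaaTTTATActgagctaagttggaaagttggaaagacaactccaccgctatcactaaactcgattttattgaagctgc
Dpt: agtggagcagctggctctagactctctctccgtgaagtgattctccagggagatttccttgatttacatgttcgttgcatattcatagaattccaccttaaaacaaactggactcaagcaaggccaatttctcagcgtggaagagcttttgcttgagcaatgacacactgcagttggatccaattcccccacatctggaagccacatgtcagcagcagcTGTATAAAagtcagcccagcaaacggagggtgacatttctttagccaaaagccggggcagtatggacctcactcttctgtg
Both motifs, together with TGANTCA and CANNTG, were searched on both strands of all 33469 promoters in the table. TATANA was present in 26.5% of them and in the windows of Chad, Prg4, Dpt and Ogn. In Chad (position -29 from the gene start) and Dpt a match along the gene lay shortly before the gene start, where TATA boxes usually sit, while the match of Prg4 nearest to the start was on the opposite strand and its match along the gene lay farther upstream. GGGCGG, the core of GC boxes, was present in 33.1% of promoters and in Fmod (position -85) and Chad (position -109). TGANTCA, the AP-1 site, was in 7.33% of promoters and in none of these 7 windows. CANNTG, the E-box, was in 72.1% of promoters and in 6 of the 7, with Fmod as the exception. A match is a string of letters in this window and not a shown binding site. The promoters of Dcn, Bgn and Eln were not used here.

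The 8 libraries held 116711 barcodes, of which 111646 were kept after removal of damaged cells and doublets. Barcodes numbered 12451 to 17187 per library, with 95954800 to 144146202 unique molecular identifiers (UMIs) in total and medians of 4522 to 5668 UMIs. Between 2.51% and 2.95% of barcodes in a library also occurred in another library. TOE 2d 4h and TOE 4d 4h shared the most, with 110 barcodes, against 40 to 73 for any other 2 libraries. Blood-lineage cells made up most of the tissue, with 44.4% of kept cells B-cell-like. The stromal cells were a small class of 1313 mesenchymal-like cells, 1.18% of those kept, in which 12 of 12 mesenchymal markers (collagens I, III, V and VI, Sparc, Pdgfra, Pdgfrb and others) were raised. They numbered 125, 67, 178 and 103 cells in the TO libraries and 62, 507, 185 and 86 cells in the TOE libraries, in order of day and hour. Their summed depth was lowest in TOE 2d 4h, with 1257893 UMIs, and highest in TOE 2d 24h, with 22422461. A further 381 cells were endothelial-like. The class shared 1 barcode between its libraries, and the barcode of 24 of its cells was also kept in another library.

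The unit of a level is CPM, the number of UMIs a gene would have among 1000000 UMIs of its cell group, and parentheses hold exact 95% Poisson intervals where shown. The intervals cover counting error only and not the spread between cells or animals. The assay counts 3′ ends, so CPM carries no length scaling and levels are compared between cells and not between genes. Over all kept cells, the mesenchymal-like class held 82.8% (Aspn) to 92.7% (Dcn) of the UMIs of 8 of the genes. The exceptions were Eln, with 48.2% of its UMIs in the class and 14.2% in endothelial-like cells, and Prg4, with 16.7% in the class. Markers of blood cells were also counted in the class. The summed level of 9 erythroid markers in it was 493 to 2873 CPM in 7 libraries and 16.1 CPM in TOE 4d 24h, and the summed level of 9 neutrophil markers was 1596 to 3904 CPM, with at most 2 of the 9 at 0 in a library. Over all kept cells the erythroid sum was 7295 to 17920 CPM in the 7 libraries and 233 CPM in TOE 4d 24h.

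To compare shares of cells at one depth, each cell was thinned to 2000 UMIs. After thinning, a Bgn UMI was found in 55.8% to 93.2% of mesenchymal-like cells by library, and in 0.185% to 3.61% of B-cell-like cells, which are not known to make it. Before thinning the shares were 86.0% to 98.3% and 0.377% to 8.11%, at median depths of 31122 UMIs per mesenchymal-like cell and 3905 UMIs per B-cell-like cell. Dcn was found in 51.9% to 92.1% and Lum in 51.7% to 77.9% of thinned mesenchymal-like cells, against at most 1.55% and 4.31% of B-cell-like cells. For Aspn in TO 4d 24h the share was 0% of thinned mesenchymal-like cells and 0.636% of B-cell-like cells. Without thinning those shares were 5.83% and 1.15%, and the level of Aspn was 7.49 CPM in mesenchymal-like and 2.78 CPM in B-cell-like cells of that library. Prg4 and Dpt were likewise found in 0% of thinned mesenchymal-like cells at 4d 24h in both groups. Without thinning, Prg4 was found in 1.94% and 1.16% and Dpt in 0.971% and 3.49% of the mesenchymal-like cells of TO 4d 24h and TOE 4d 24h.

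Within the class, each gene had its own distribution over the stromal sub-classes, which were clustered without these 10 genes. The sub-classes were osteoblast-like (316 cells), fibroblast-like (179 cells), marrow reticular-like (106 cells) and pericyte/smooth muscle-like (91 cells). The 3 further groups are called by their leading genes: a Cilp2 cluster (116 cells), a Cnn1 cluster (163 cells) and a Crybb1 cluster (213 cells). The Cilp2 cluster was led by Cilp2, Ucma, Comp and Hapln1, genes of cartilage and tendon matrix, and raised 5 of 6 tenocyte markers, but it also had a chondrocyte marker among its leading genes and was left without a cell type name. The Crybb1 and Cnn1 clusters had F13a1, a monocyte gene, among their leading genes. Most UMIs of both clusters came from TOE 2d 24h, which gave 124 of the 163 Cnn1 cells. Their pooled levels therefore rest mainly on that 1 library, and their levels without it are not given here. The remaining cells of the class fell into small groups of at most 42 cells, most of them led by blood-cell genes.

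Dcn and Bgn, class I proteoglycans, were broad. Dcn stood at 1459 CPM in the Cilp2 cluster, 1438 CPM in osteoblast-like cells and 884 CPM in fibroblast-like cells, and was lowest in pericyte/smooth muscle-like cells at 68.0 CPM. Bgn differed far less, from 732 CPM in marrow reticular-like cells to 1679 CPM in the Cilp2 cluster, with pericyte/smooth muscle-like cells at 1256 CPM. For both genes the sub-class with the highest level changed when some single libraries were left out, to osteoblast-like cells for Dcn and to fibroblast-like cells for Bgn. Osteoblast-like cells held 39.0% of the Dcn UMIs of the class. Aspn, also of class I, was nearly absent from osteoblast-like cells at 2.92 CPM, while the Cilp2 cluster had 1434 CPM and fibroblast-like cells 747 CPM. In osteoblast-like cells Aspn stayed between 0 and 6.44 CPM in all 8 libraries, whereas Dcn there was 1003 to 2023 CPM and Bgn 1131 to 2086 CPM. The border of these cells moved between clusterings. At Leiden resolution 2, an osteoblast-like cluster of 126 cells shared the leading genes Adamts18 and Rap1gap with the Crybb1 cluster, where Aspn stood at 156 CPM. The level of Aspn in osteoblast-like cells under that clustering is not given here.

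Of the class II members, Lum was highest in the Cilp2 cluster at 2370 CPM and lay between 1004 and 1652 CPM in fibroblast-like cells, marrow reticular-like cells and the Cnn1 and Crybb1 clusters. Fmod, which acts with Lum on collagen fibrils, stood at 811 CPM in the Cilp2 cluster and at no more than 94.6 CPM in the 6 others, and 50.5% of its UMIs came from that cluster. Ogn, a class III member, was highest in the Cilp2 cluster at 954 CPM, 508 and 509 CPM in fibroblast-like and marrow reticular-like cells, and 132 CPM in osteoblast-like cells. Chad, of class IV, was the most confined of the 10, with 147 of its 150 UMIs in 16 cells of the Cilp2 cluster, at 50.4 CPM (42.6–59.3). Of these UMIs 115 came from TOE 4d 4h, and without that library the cluster had 32 UMIs and stood at 16.9 CPM.

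Of the 3 other matrix genes, pooled over libraries, Prg4 and Dpt were highest in fibroblast-like cells. Eln was highest in the Cilp2 cluster, as the 7 proteoglycans were. Prg4 stood at 245 CPM in fibroblast-like cells and 108 CPM in the Cilp2 cluster, and between 0.522 and 2.43 CPM in the other 5 sub-classes. The fibroblast-like level was 142 CPM without TO 2d 0h and 667 CPM without TO 4d 4h, and the order was not the same in every library. In TO 4d 4h Prg4 stood at 52.5 CPM in 125 fibroblast-like cells and at 737 CPM in 3 cells of the Cilp2 cluster, with 55 UMIs in 1 of them, and in TOE 2d 24h at 33.5 CPM in 2 cells and 192 CPM in 16 cells. Dpt, pooled, had 275 CPM in fibroblast-like cells and 52.5 CPM in the Cilp2 cluster, which became 493 CPM without TO 4d 4h and 29.2 CPM without TOE 2d 24h. Fibroblast-like cells held 90.3% of the Dpt UMIs and 81.0% of the Prg4 UMIs of the class. Eln was highest in the Cilp2 cluster at 241 CPM, of which 556 of 703 UMIs came from TOE 4d 4h, and stood at 52.0 CPM in pericyte/smooth muscle-like cells. Without that library these levels were 77.4 and 29.5 CPM. It stood at 37.8 CPM in fibroblast-like cells and 49.99 CPM in endothelial-like cells. Among endothelial-like cells, 79 cells led by Gja5, the connexin of arterial endothelium, had Eln at 146 CPM (128–165), against 18.8 CPM (15.1–23.2) in the 219 cells led by Gpr182, a gene of sinusoidal endothelium.

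**Figure D1:**
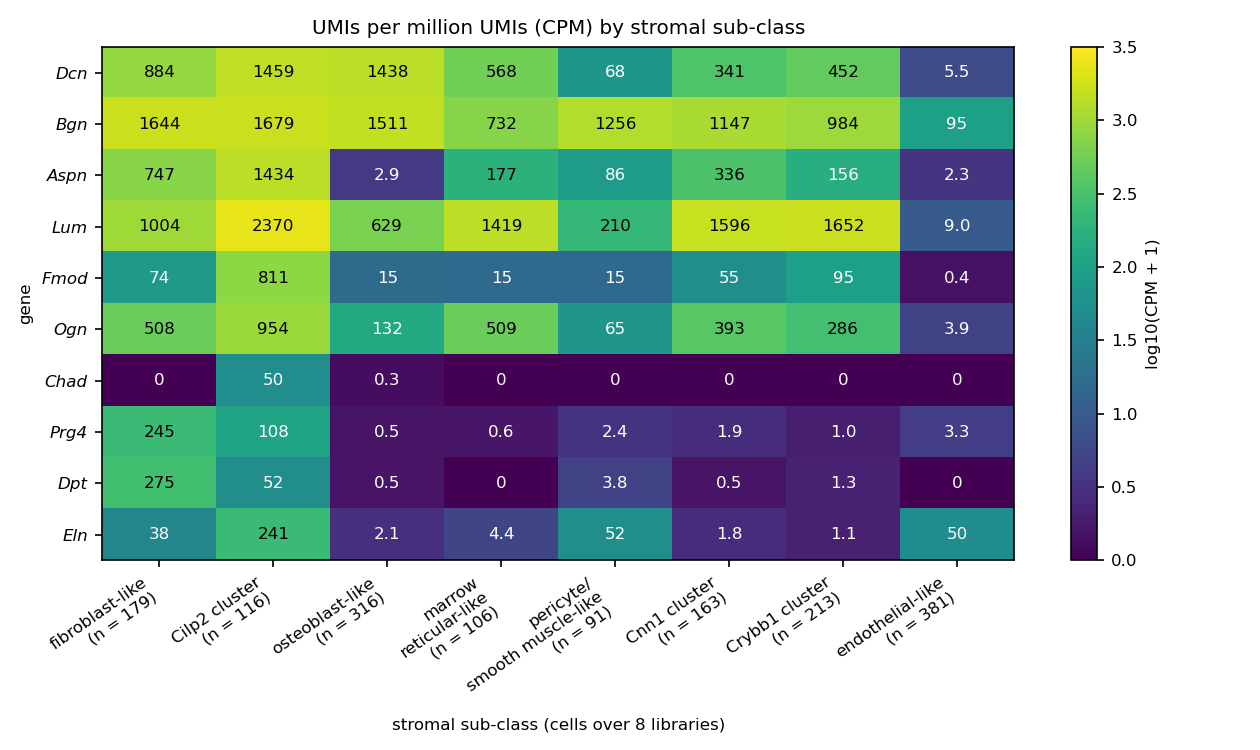
Heat map of the CPM of the 10 genes (rows) in the stromal sub-classes and in endothelial-like cells (columns, with cell numbers over 8 libraries); colour is log10(CPM + 1) and the CPM is printed in each cell. Bgn is above 700 CPM in all 7 mesenchymal-like sub-classes, Aspn is at 2.92 CPM in osteoblast-like cells, and Chad is above 1 CPM only in the Cilp2 cluster.

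Single cells showed which genes were detected together. Of 144 mesenchymal-like cells with a Prg4 UMI, 91 also had Dpt (63.2%), and these were 43.1% of the 211 cells with Dpt. Aspn was found in 199 of the 211 Dpt cells. Of the 18 cells with Chad, 16 had Fmod and 12 had Eln. Across 27 units of sub-class and library with at least 20 cells, 7 of them endothelial-like, Lum and Ogn had the highest correlation of log2(CPM + 1) among the members (r = 0.94), followed by Dcn and Lum (r = 0.92). Over the 20 mesenchymal-like units alone these were r = 0.87 and r = 0.50, and the highest was that of Prg4 and Dpt (r = 0.90). Units of one library share its preparation and depth, so r is a description. By the same measure over 11153 genes, the gene most like each member was Cthrc1 for Dcn (r = 0.98), Pcolce for Bgn (r = 0.96), Igsf10 for Aspn (r = 0.97), Clec11a for Lum (r = 0.98) and Slc1a3 for Fmod (r = 0.92). It was Prrx2 for Ogn (r = 0.95), Cilp2 for Chad (r = 0.74), Dpt for Prg4 (r = 0.86), Arsi for Dpt (r = 0.96) and Itih5 for Eln (r = 0.83). Over the 20 mesenchymal-like units the r of Bgn with Pcolce was 0.44, and those of the other 9 were between 0.74 and 0.96. Chad had 118 UMIs in these units, far fewer than any other member.

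The make-up of the class differed between libraries and moved with the level of several genes. At 4d 4h, fibroblast-like cells gave 73.7% of the class UMIs in TO and 17.3% in TOE, while the Cilp2 cluster gave 1.25% and 20.3%. At 4d 24h, osteoblast-like cells gave 71.8% in TO and 41.2% in TOE, the Cilp2 cluster 0% and 27.2%, and marrow reticular-like cells 3.70% and 18.9%. At 2d 4h the fibroblast-like share was 1.11% in TO and 12.4% in TOE, from 2 and 7 cells. TOE 2d 24h, with the most cells, drew 39.5% of its class UMIs from the Crybb1 cluster and 25.1% from the Cnn1 cluster. What the dissection contributed to these shares was not tested.

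**Figure D2:**
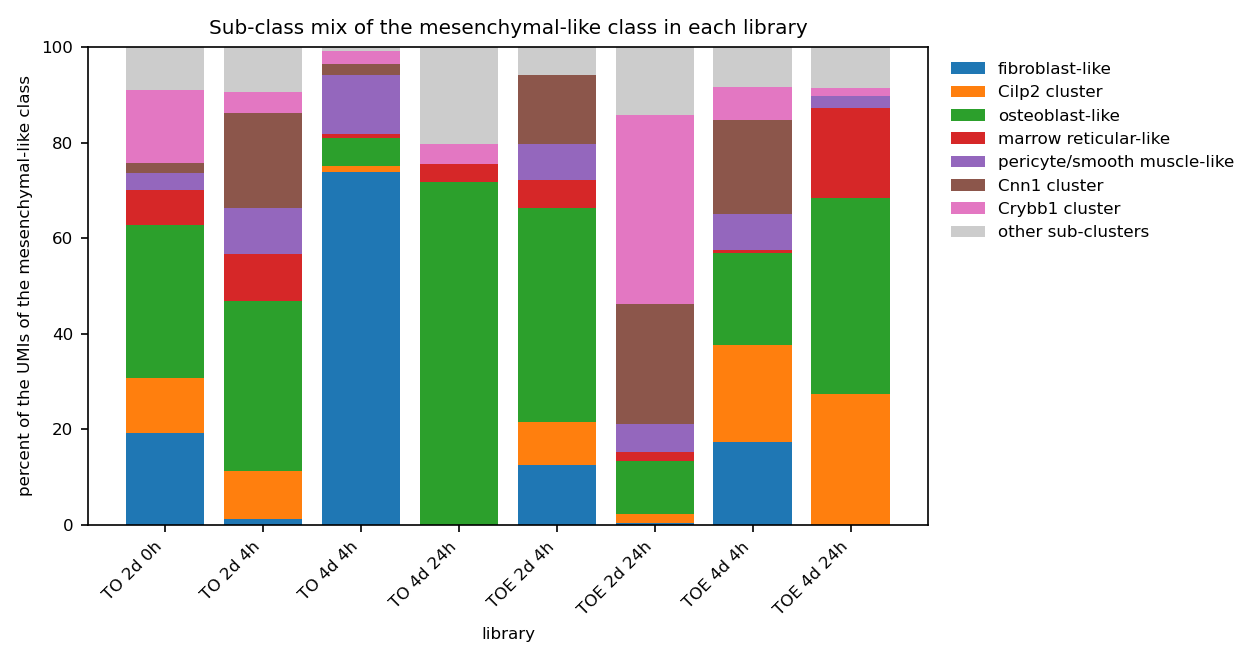
Stacked bars of the percent of the UMIs of the mesenchymal-like class (y axis, 0 to 100) that came from each sub-class (colours) in each of the 8 libraries. Fibroblast-like cells fill 73.7% of TO 4d 4h and osteoblast-like cells 71.8% of TO 4d 24h, and the Cilp2 cluster is widest in TOE 4d 24h at 27.2%.

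Dcn, Bgn, Lum and Ogn were found in every library of the whole class, at levels that differed between libraries. Dcn stood at 1044, 699.6, 744 and 1826 CPM in the TO libraries (day 2 at 0 and 4 h, then day 4 at 4 and 24 h) and at 1293, 469, 764 and 1473 CPM in the TOE libraries (4 and 24 h of day 2, then of day 4). Both 4d 24h libraries were the highest, and TOE 2d 24h the lowest. In the same order, Bgn was 1099, 1081, 1716 and 1483 CPM in TO and 1601, 1053, 1694 and 1007 CPM in TOE. Lum was 903, 1037, 911 and 908 CPM in TO and 720.3, 1398, 1408 and 1446 CPM in TOE, so that 3 TOE libraries lay above all TO libraries and TOE 2d 4h lay below them. Ogn was 233, 301, 379 and 191 CPM in TO and 403, 306, 420.2 and 580.0 CPM in TOE. For these 4 genes the libraries of the groups overlapped, with TO 4d 4h above TOE 2d 24h in Ogn.

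Aspn stood at 204, 149.5, 659 and 7.49 CPM in the TO libraries in that order and at 180.5, 223, 558 and 439 CPM in the TOE libraries. TO 4d 24h stood apart, with 24 UMIs in 6 of 103 cells, 10 of them in 1 cell of the Crybb1 cluster, and the other 7 libraries lay within 149.5 to 659 CPM. Fmod was 112, 117, 107 and 4.37 CPM in TO and 223, 76.0, 248 and 45.3 CPM in TOE. A single cell of the Cilp2 cluster gave 221 of the 281 Fmod UMIs of TOE 2d 4h, without which that library stood at 48.8 CPM, and 1 cell gave 243 of 637 in TO 4d 4h, which stood at 66.2 CPM without it. Chad was seen in 4 libraries, with 10 UMIs in TO 2d 0h and, among the TOE libraries, 14 and 9 on day 2 (4 and 24 h) and 117 at 4d 4h. It had none in TO 2d 4h, TO 4d 4h or either 4d 24h library. A floor of 3 UMIs would be 0.503 CPM in TO 4d 4h and 2.00 CPM in TO 2d 4h, and the exact upper limit of a count of 0 lies above it.

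Prg4 was 195, 2.00, 49.1 and 0.624 CPM in the TO libraries and 241, 5.53, 56.3 and 1.46 CPM in the TOE libraries. It was high in TO 2d 0h and TOE 2d 4h, intermediate in both 4d 4h libraries and low in the rest. Single cells weighed heavily, with 264 of 929 UMIs of TO 2d 0h and 202 of 303 UMIs of TOE 2d 4h in 1 cell each, and 82.5 CPM in TOE 2d 4h without that cell. Dpt was 96.4, 4.01, 129.7 and 0.312 CPM in TO and 94.6, 5.53, 90.9 and 6.33 CPM in TOE, high in the same 4 libraries as Prg4. Those 4 libraries were also the only ones with more than 2 fibroblast-like cells, at 17 and 125 in TO 2d 0h and TO 4d 4h and 7 and 26 in TOE 2d 4h and TOE 4d 4h. Eln was 15.8, 16.7, 33.0 and 1.25 CPM in TO and 74.7, 4.33, 133 and 2.92 CPM in TOE, with TOE 4d 4h and TOE 2d 4h the highest.

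**Figure D3:**
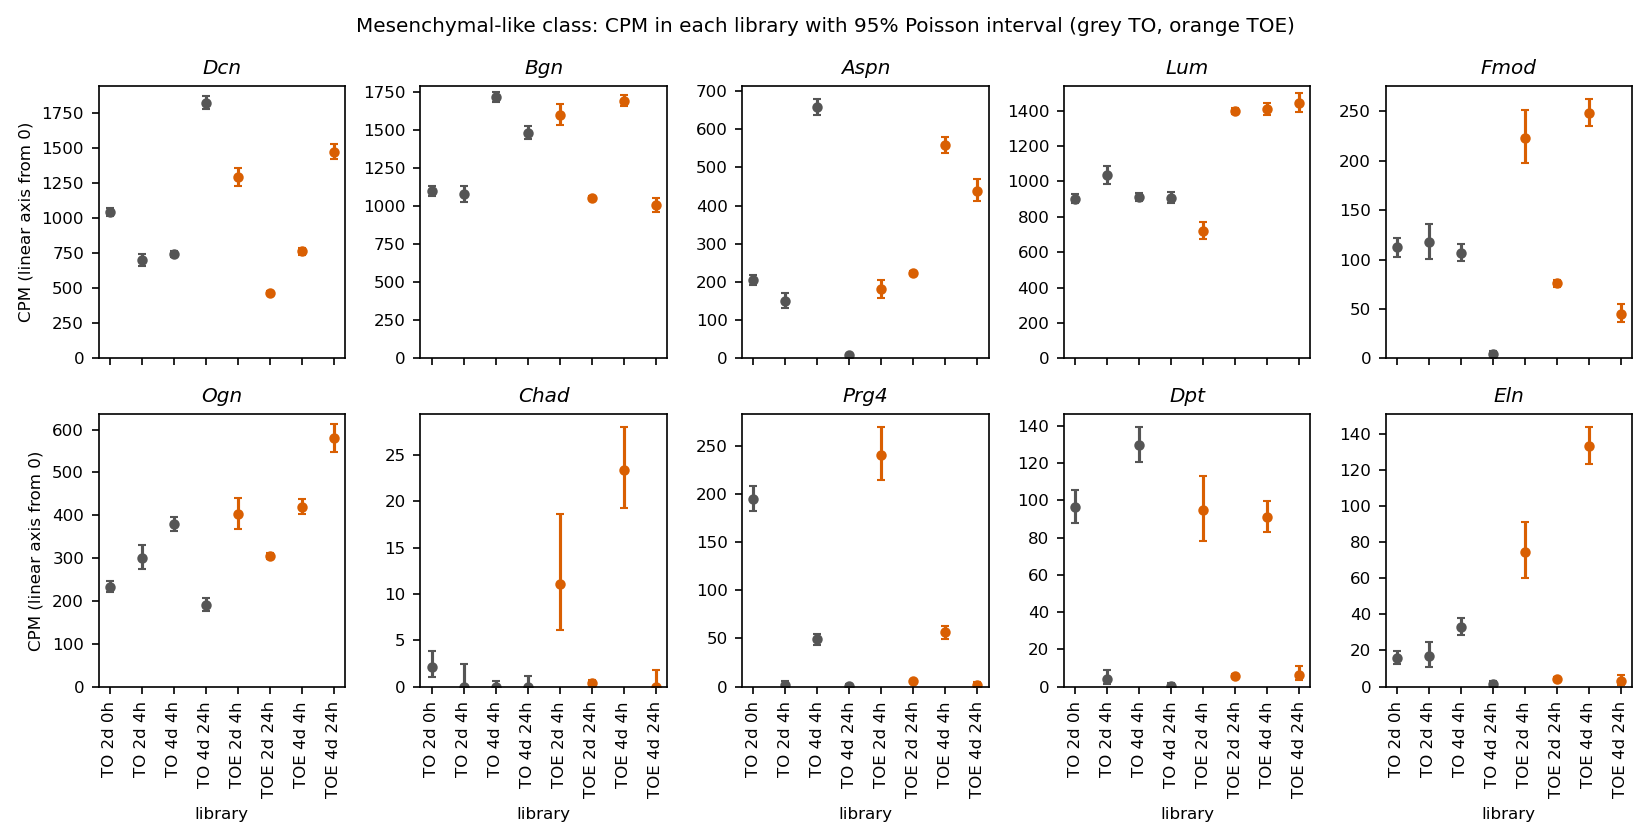
One panel per gene with its CPM in the mesenchymal-like class (linear y axis from 0) in each library (x axis), points with exact 95% Poisson intervals, grey for TO and orange for TOE. Dcn and Bgn lie above 400 CPM in all 8 libraries, and Prg4 and Dpt are high in TO 2d 0h, TO 4d 4h, TOE 2d 4h and TOE 4d 4h.

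TOE was compared with TO at the same day and hour, and with 1 library each the shock waves cannot be told apart from the animal, dissection or run. A gene was called at least 2-fold higher or lower where the pair held at least 20 UMIs and the ratio, with 0.5 UMI added to each library, was past 2 in that direction. Ratios below are those of CPM, TOE over TO, with exact conditional intervals. In every pair 3 members were called higher and none lower. At 2d 4h, 9 members had enough UMIs, and 3.95% of all 9888 genes tested were called higher and 5.38% lower. At 4d 4h all 10 had enough, with 4.92% of 13143 genes higher and 5.64% lower. At 4d 24h only 6 had enough, with 15.0% of 10807 genes higher and 3.61% lower, and the median of all genes there was shifted up by 0.29 on the log2 scale, against -0.06 at 2d 4h and 0.00 at 4d 4h. The members were chosen with these ratios known, so nothing is read from the counts against those shares. The members with enough UMIs had median log2 ratios of 0.89, 0.17 and 1.14 in the 3 pairs in order of time.

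At 2d 4h the 3 called members were Prg4, Dpt and Eln. Prg4 had 3 UMIs in TO and 303 in TOE, a ratio of 120.3 (40.8–587), and Dpt had 6 and 119, a ratio of 23.6 (10.5–65.7). Of the TOE UMIs, 296 of Prg4 and 110 of Dpt came from the 7 fibroblast-like cells of that library. Eln had 25 and 94 UMIs, a ratio of 4.48 (2.86–7.27), and 19 of the 25 TO UMIs were in 1 pericyte/smooth muscle-like cell. In the Cilp2 cluster, of 9 TO and 7 TOE cells, Eln had 4 UMIs against 88, a ratio of 29.4 (11.1–110.3). In pericyte/smooth muscle-like cells, 8 in TO and 5 in TOE, there were 19 Eln UMIs in TO, all in that 1 cell, against 4 in TOE, so no direction is read there. Dcn had a ratio of 1.85 (1.71–2.00), Fmod 1.90 (1.57–2.31), Bgn 1.48 (1.39–1.58) and Ogn 1.34 (1.18–1.52) in the class, while Lum was at 0.694 (0.639–0.754). The interval of Aspn, 1.21 (0.999–1.46), included 1. The direction of Fmod rested on single cells, since without the top cell of each library, 88 of 176 UMIs in TO and 221 of 281 in TOE, it stood at 59.1 CPM in TO and 48.8 CPM in TOE. That TOE cell, of the Cilp2 cluster, also held 304 of 1626 Dcn UMIs, 104 of 507 Ogn UMIs and 50 of 227 Aspn UMIs. In TO, 1 cell of that cluster held 108 of 224 Aspn UMIs. The ratios of these genes are therefore not separate results, and their intervals do not cover the weight of single cells. Chad, with 0 and 14 UMIs, did not reach the minimum.

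At 4d 4h the called members were Fmod, Chad and Eln. Fmod had 637 UMIs in TO and 1244 in TOE, a ratio of 2.33 (2.11–2.56). Chad had 117 UMIs in TOE, 115 of them in 8 cells of the Cilp2 cluster, against none in TO, which makes it 46.5-fold higher when the TO library is set at 3 UMIs, with a lower limit of 37.2 from the exact conditional interval. Eln had 197 and 667 UMIs, a ratio of 4.03 (3.44–4.75), and 556 of the TOE UMIs were in the Cilp2 cluster. That cluster held 3 cells in TO and 42 in TOE, too few in TO for a comparison within it. Lum was 1.55-fold higher (1.49–1.60), and Dcn (1.03, 0.983–1.07), Bgn (0.987, 0.959–1.02) and Prg4 (1.15, 0.970–1.36) had intervals that included 1. Aspn had a ratio of 0.848 (0.807–0.890) and Dpt of 0.701 (0.623–0.788).

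This pair had enough fibroblast-like cells, 125 in TO and 26 in TOE, to compare within them, and there the order differed. Prg4 was 52.5 CPM in TO and 290 CPM in TOE, a ratio of 5.52 (4.60–6.63), and Dpt was 175 and 493 CPM, a ratio of 2.81 (2.49–3.17). Without the top cell of each library Prg4 stood at 47.2 and 214 CPM, and 36.0% of TO and 61.5% of TOE fibroblast-like cells had a UMI of it. Ogn had a ratio of 1.77 (1.62–1.92) and Fmod of 1.40 (1.11–1.77). Lum at 0.752, Aspn at 0.796 and Bgn at 0.840 were lower, and Eln at 0.819 (0.538–1.21) did not share the direction of the class. In the pericyte/smooth muscle-like cells of this pair, 22 and 16 cells, Eln had 5 and 76 UMIs, of which 56 were in 1 cell.

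At 4d 24h the called members were Aspn, Fmod and Ogn. Aspn had 24 UMIs in TO and 902 in TOE, a ratio of 58.6 (39.1–92.0), Fmod had 14 and 93, a ratio of 10.4 (5.88–19.7), and Ogn had 612 and 1192, a ratio of 3.04 (2.75–3.35). The Cilp2 cluster, with 24 cells in TOE and none in TO, gave 719 of the Aspn UMIs and 87 of the Fmod UMIs of TOE. Among marrow reticular-like cells, 9 in TO and 32 in TOE, Aspn had 8 and 176 UMIs, a ratio of 6.74 (3.35–15.9), while Ogn had a ratio of 0.519 (0.413–0.655) and Lum of 0.451 (0.387–0.525). Pooled over libraries, Aspn was found in 22 of the 106 marrow reticular-like cells, with 82 of its 281 UMIs there in 1 cell. With another clustering seed the marrow reticular-like cluster held 71 cells, and the ratios under that clustering are not given here. The other 4 members, Chad (0 UMIs in both), Prg4 (2 and 3), Dpt (1 and 13) and Eln (4 and 6), did not reach the minimum. In the class Lum had a ratio of 1.59 (1.51–1.68), Dcn of 0.807 (0.772–0.843) and Bgn of 0.679 (0.645–0.715). Osteoblast-like cells, 72 and 22 cells, had Dcn at a ratio of 1.02 (0.961–1.08) and Ogn at 1.08 (0.873–1.34). Blood-cell markers in the class also moved in this pair, the erythroid markers from 804 CPM in TO to 16.1 CPM in TOE, the plasma-cell markers from 2861 to 183 CPM, and the neutrophil markers from 2027 to 3904 CPM. The erythroid markers differed in the other pairs too, at 2873 and 493 CPM in the 2d 4h pair and at 772 and 2135 CPM in the 4d 4h pair. The part of those cells in the results was not tested. Aspn and Ogn lie within Cenpp, on the opposite strand, in the GRCr8 annotation, and reads of such genes can be hard to assign. In the cells of the class without a Cenpp UMI, Aspn was 2.96 CPM in TO and 455 CPM in TOE, and Ogn 168 and 645 CPM. At 4d 4h the cells without a Cenpp UMI had Aspn at 748 and 454 CPM and Ogn at 455 and 470.4 CPM. In the earliest pair they were 58 and 45 cells, with Aspn at 192 and 75.2 CPM and Ogn at 336 and 226 CPM, so that both turned in direction there.

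Summed, the UMIs of the 7 small leucine-rich proteoglycans relative to all UMIs of the class had a log2 ratio of 0.39 at 2d 4h and of 0.18 in both day 4 pairs. Within fibroblast-like cells at 4d 4h the sum had a log2 ratio of -0.10, so its direction depended on which cells were summed. Centring on the median of all genes turned the 4d 24h value to -0.12.

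To show how far the mix of sub-classes goes with these values, a mix level was computed for each library from its own share of UMIs in each sub-class and the CPM of that sub-class in the 7 other libraries. At 4d 24h the mix level of Aspn was 19.0 CPM in TO and 425 CPM in TOE, beside measured levels of 7.49 and 439 CPM. Ogn had mix levels of 147 and 397 CPM beside 191 and 580.0 CPM, and Fmod of 23.2 and 278 CPM beside 4.37 and 45.3 CPM. At 4d 4h Fmod had mix levels of 65.3 and 193 CPM beside 107 and 248 CPM. For these 4 the mix level moved in the direction of the measured level. Chad at 4d 4h had mix levels of 0.667 and 3.45 CPM beside 0 and 23.4 CPM, a smaller step than the measured. Eln did not behave so, with mix levels of 32.3 and 30.3 CPM at 2d 4h, beside measured 16.7 and 74.7 CPM, and of 32.2 and 25.5 CPM at 4d 4h, beside 33.0 and 133 CPM. Most Eln and Chad UMIs of the Cilp2 cluster came from TOE 4d 4h, which its own mix level leaves out. For these 2 genes the mix level of TOE 4d 4h was therefore bound to be low, and the part of the mix was not tested. Prg4 at 2d 4h had mix levels of 15.5 and 36.0 CPM, a smaller step than the measured 2.00 and 241 CPM, and Dpt of 9.46 and 38.1 CPM beside 4.01 and 94.6 CPM.

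**Figure D4:**
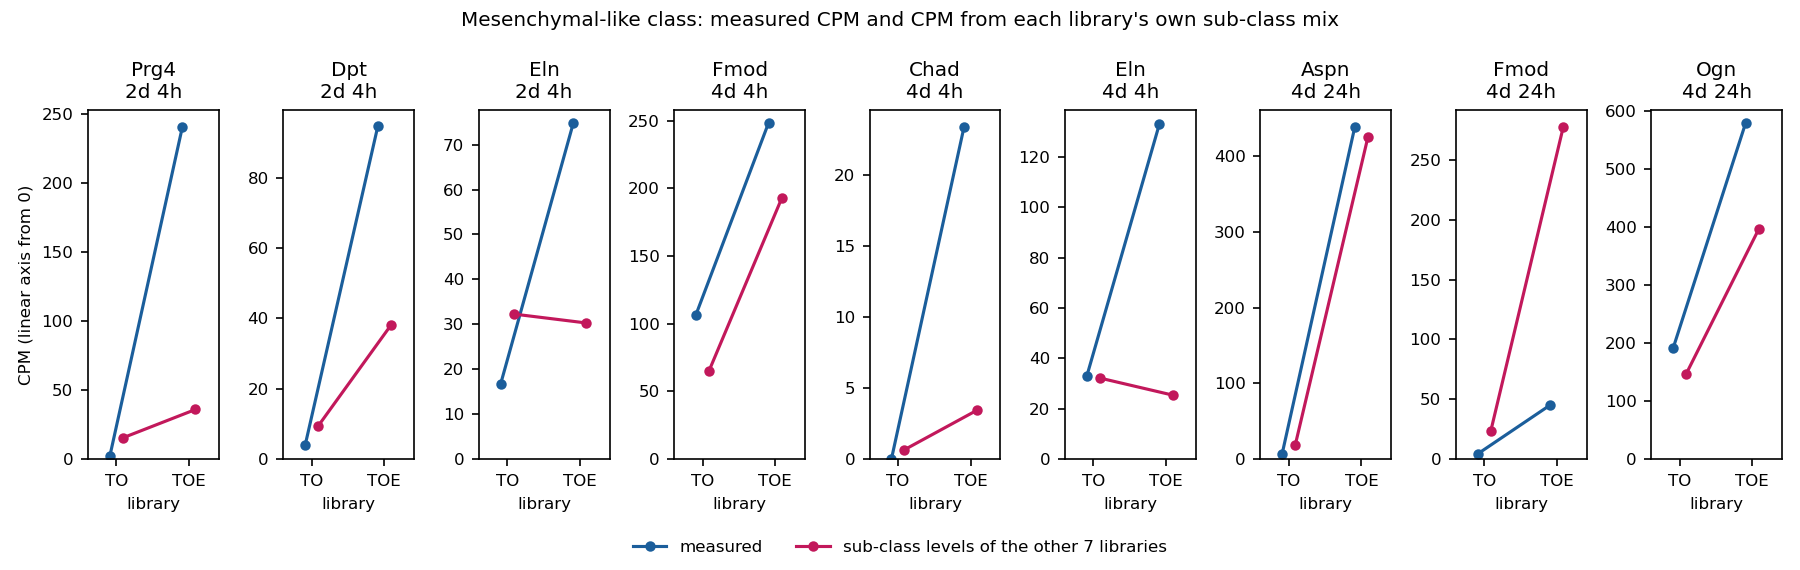
Panels for the members called in a pair, with the CPM of the mesenchymal-like class (linear y axis from 0) in TO and TOE (x axis), as measured and as the mix level from each library's own sub-class shares. For Aspn at 4d 24h the measured 7.49 and 439 CPM stand beside mix levels of 19.0 and 425 CPM, and for Eln at 4d 4h the measured 33.0 and 133 CPM stand beside 32.2 and 25.5 CPM.

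Genes of the same matrix, taken from lists by function, are given by counts among those with enough UMIs. Over all genes tested, 3.95%, 4.92% and 15.0% were called higher and 5.38%, 5.64% and 3.61% lower in the 3 pairs in order of time, and the counts of each list stand beside these shares with nothing read as particular to a list. Joint and cartilage matrix genes had 3 higher and 2 lower of 14 at 2d 4h, 7 higher and 4 lower of 16 at 4d 4h, and 8 higher and 2 lower of 13 at 4d 24h. Thbs4, a thrombospondin of tendon, had ratios of 8.38 (6.91–10.2) at 2d 4h and 4.26 (3.74–4.86) at 4d 4h. Acan (aggrecan), the large proteoglycan of cartilage, stood at a ratio of 0.405 (0.312–0.522) on day 2, and on day 4 at ratios of 5.00 (4.48–5.601) after 4 h and 19.1 (13.6–27.4) after 24 h. At 4d 4h the ratio of Cilp2 was 12.2 (8.75–17.5) and that of Has2, a hyaluronan synthase, 0.217 (0.187–0.251). Cilp2 leads the Cilp2 cluster, and Thbs4 and Acan are markers used to name sub-classes. At 4d 24h Fndc1 had a ratio of 31.8 (13.2–100.1) and Matn4, a matrilin, of 0.123 (0.0438–0.281).

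The other small leucine-rich proteoglycans had 3 higher and 1 lower of 7 in the first pair, then 1 and 1 of 8, and 2 and 0 of 5 in the last. Kera (keratocan), which lies beside Lum in GRCr8, stood at 4.99 (3.47–7.35) in the 2d 4h pair, and Prelp, which lies beside Fmod, at 4.87 (3.03–8.16). In the 4d 4h pair Omd, between Ogn and Aspn, stood at 6.15 (3.98–9.85), and Podn at 0.284 (0.212–0.374). Elastic fibre assembly genes had 3 higher and 2 lower of 17, 1 and 3 of 18, and 4 and 1 of 14. At 4d 4h, where Eln was called higher, Fbn1 (fibrillin 1), the scaffold of elastic fibres, had a ratio of 0.476 (0.447–0.506) and Fbn2 (fibrillin 2) of 0.447 (0.371–0.535).

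Of the genes that build glycosaminoglycan chains on these core proteins, 0 were higher and 1 lower of 17 in the first pair, then 1 and 1 of 19, and 3 and 1 of 17 in the last. Csgalnact1, which starts chondroitin chains, stood at 0.341 (0.294–0.395) in the 4d 4h pair, and the sulfotransferase Chst11 at 0.444 (0.390–0.504) in the 4d 24h pair. Among the genes called higher in the 4d 24h pair were Fam20b, at 2.47 (1.54–4.00), and Dse, at 2.18 (1.60–2.99). Dse had been lower in the 2d 4h pair, at 0.435 (0.330–0.568). Proteases that cleave proteoglycans had 1 higher and 1 lower of 10, 0 and 3 of 12, and 4 and 0 of 10. Mmp13, a collagenase, had 1804 UMIs in TO and 47 in TOE at 2d 4h, a ratio of 0.0310 (0.0227–0.0414), and a ratio of 2.51 (2.22–2.84) at 4d 24h. Adamts1, Adamts4 and Adamts9 were the 3 lower at 4d 4h, with ratios of 0.305, 0.463 and 0.459. Receptors and ligands had 0 higher and 1 lower of 10, 2 and 1 of 13, and 2 and 2 of 10, with Egfr, which decorin can bind, at 0.354 (0.321–0.389) at 4d 4h and 5.07 (3.53–7.42) at 4d 24h.

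By number of UMIs, most Prg4 lay outside the stroma. Of its UMIs, 68.1% lay in 5 clusters with monocyte markers (13556 cells), at 39.0 CPM (38.2–39.9) and in 23.3% of cells. The mesenchymal-like class, with 1313 cells, had a like level of 42.0 CPM (40.1–43.9) and held 16.7% of the UMIs. B-cell-like cells stood at 0.884 CPM and 0.382% of cells, and neutrophil-like cells at 8.16 CPM. The highest of the 5 clusters were led by Pilrb1, at 63.8 CPM, and by Slc10a6, Ms4a7 and Apoe, at 62.4 CPM. The Slc10a6 cluster also had Trem2 and Mrc1 among its leading genes and was left unnamed. With another clustering seed, a cluster led by the same 3 genes was named macrophage-like. The clusters named monocyte-like held 51.4% of the Prg4 UMIs, at 34.8 CPM. By library, Prg4 in the 5 clusters was 43.3, 30.2, 33.6 and 19.4 CPM in the TO libraries and 56.7, 31.1, 54.6 and 18.5 CPM in the TOE libraries, in order of day and hour. Both 4d 24h libraries were low and both 4 h TOE libraries high. The top cell held 69 of 7904 UMIs, so these values rest on many cells. Prg4 overlaps Tpr, on the opposite strand, in the GRCr8 annotation. After thinning, 6.59% of cells of these clusters with a Tpr UMI and 6.78% of those without had Prg4.

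**Figure D5:**
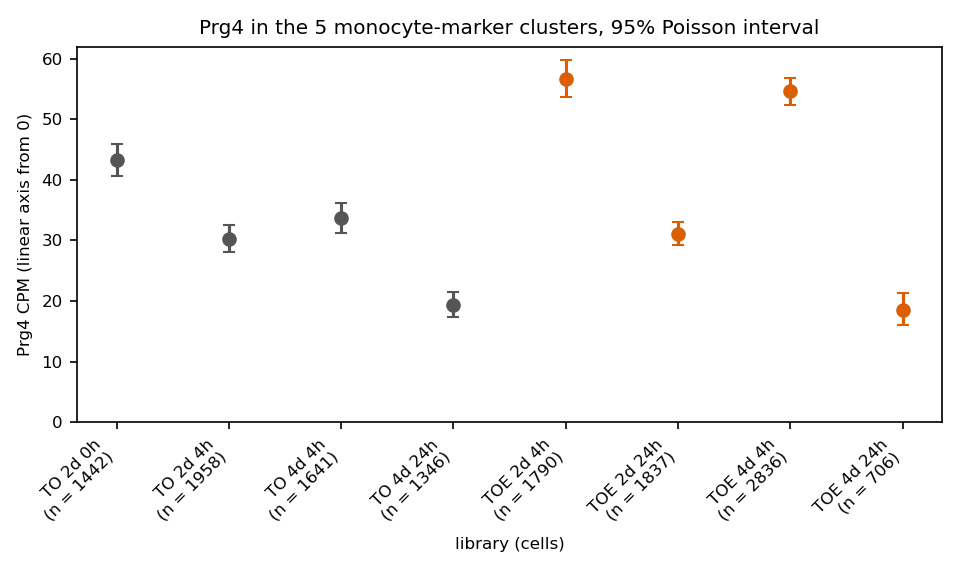
Prg4 CPM (linear y axis from 0) in the 5 clusters with monocyte markers in each library (x axis, cell numbers in parentheses), points with exact 95% Poisson intervals, grey for TO and orange for TOE. The values run from 18.5 CPM in TOE 4d 24h to 56.7 CPM in TOE 2d 4h.

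Eln in endothelial-like cells did not keep 1 direction. At 2d 4h it was 159 CPM in 35 TO cells and 19.5 CPM in 27 TOE cells, a ratio of 0.123 (0.0544–0.242). It was 13.6 and 90.4 CPM at 4d 24h, a ratio of 6.63 (2.62–19.9), where 18 of the 23 TOE UMIs were in 1 of 17 cells. At 4d 4h it was 44.2 and 42.0 CPM, a ratio of 0.951 (0.641–1.41). The shares of cells led by Gja5 and by Gpr182 in these libraries are not given here, and their part in the ratios was not tested. Bgn, the only other member above 10 CPM in endothelial-like cells, had 40 and 188 UMIs at 4d 4h, a ratio of 4.72 (3.34–6.82). Its ratios at 2d 4h, 1.41 (0.741–2.70), and at 4d 24h, 1.34 (0.828–2.14), had intervals that included 1.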

How the data were processed

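Single-cell libraries (10x Genomics, 3′ gene expression) were analysed for 8 conditions with 1 library each. The authors deposited whole-number counts of UMIs per gene and barcode, without normalization. The submitters' processing notes name Cell Ranger 9.0.0, Seurat, R 4.0.3 and the builds GRCh38 and mRatBN7.2, without saying which build served these files. Every deposited barcode had at least 500 UMIs.

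A barcode was kept if it had 200 genes or more and no more than 20% of its UMIs from mitochondrial genes, and those with Scrublet scores of at least 0.25 were removed as doublets (2.43% to 4.15% per library). Cells were clustered with scanpy 1.11.5 (Python 3.11.15) on 2000 variable genes without the 10 members, 30 principal components, 15 neighbours and Leiden resolution 1, and the stromal cells again with 20 components. A cluster was named where at least 3 markers, and at least 1 in 3 of a list, were raised 2-fold and found in at least 10% of its cells. It stayed without a cell type name where markers of another class outnumbered its own among its 10 leading genes. A named cluster was called low-UMI where its median depth was below 1 in 3 of the median of its library. Part of this naming rule, and the minimum of 5 cells per library for a comparison within a sub-class, were set after the clusters were seen.

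UMIs were summed per gene, class and library and given as CPM with exact Poisson intervals, and ratios with exact conditional intervals, at 95%. With 1 library per group no test was made and no p-value is given. A gene was called at 2-fold with at least 20 UMIs over a pair and 0.5 UMI added. Poisson counts were simulated from the summed UMIs of the class, with 200 genes changed 4-fold. Of the changes, 98.9%, 99.3% and 98.5% were recovered at 2d 4h (9888 genes), 4d 4h (13143 genes) and 4d 24h (10807 genes). Of the unchanged genes, 1.93%, 1.03% and 1.76% passed 2-fold. The simulation held no spread between cells or libraries, so it covers counting error only and does not give the error rate of the calls. The genes named were the 10 members, up to 4 genes per list and pair with at least 50 UMIs among those past 2-fold, and the 5 genes most like each member, of which the first is printed. The members and lists were chosen with earlier results of these data known. Genes outside this rule that describe clusters were named after their values were seen. Promoter sequences, overlaps and neighbours came from RefSeq tables of GRCr8, a build other than that of the files, so no gene coordinates were joined to the counts. Alternatives covered the cell filter, doublets, clustering, minimum UMIs, prior, scaling, weighting of cells, the top cell and the fibroblast-like and osteoblast-like sub-classes. After seeing the data, sub-class levels were also computed without each library in turn, and correlations without endothelial-like units.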

Additional observations from a re-analysis of the deposited data

Results flagged for a closer look

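Differences between pairs were looked for where a member's ratio lay on opposite sides of 1 at 2 times, and none of these differences was tested, since each time has 1 library per group. Dcn was higher in TOE at 2d 4h and lower at 4d 24h, a difference of 1.20 on the log2 scale, and Bgn showed the same pattern with a difference of 1.12. Lum went the other way, lower in TOE at 2d 4h and higher at 4d 24h, with a difference of 1.20. Aspn was lower in TOE at 4d 4h and higher at 4d 24h, with a difference of 6.08. Dpt was higher in TOE at 2d 4h, where TO had 6 UMIs, and lower at 4d 4h, with a difference of 4.97. Within fibroblast-like cells at 4d 4h, however, Dpt was higher in TOE, with a ratio of 2.81 (2.49–3.17). The sub-class make-up of the class differed between the same libraries, and its part in these differences was not tested.

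Outside the stromal classes, Prg4 stood at 39.0 CPM in the clusters with monocyte markers, where B-cell-like cells stood at 0.884 CPM. A cluster of 1739 cells with a median of 840 UMIs, which raised 7 of 12 mesenchymal markers but was too shallow to be counted in the class, held Bgn at 481 CPM, Lum at 477 CPM, Dcn at 168 CPM and Ogn at 68.7 CPM.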

How the results depend on the processing

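Over 13 alternatives for the whole class, the 9 calls kept their direction. Settings that only moved the minimum of UMIs left each ratio as it was, and all alternatives reused the same libraries. Within fibroblast-like or osteoblast-like cells, enough cells and UMIs were left only for Fmod and Eln at 4d 4h and Ogn at 4d 24h, and Eln turned there, from a log2 ratio of 2.01 to -0.27 within fibroblast-like cells. Fmod at 4d 24h, below the minimum, had 6 UMIs in TO and 1 in TOE within osteoblast-like cells. In marrow reticular-like cells, which were not among the alternatives, Ogn at 4d 24h had a ratio of 0.519. Leaving out the top cell of each library took Eln at 2d 4h from 2.14 to 3.49, and a mean of cells took Dpt at 2d 4h from 4.45 to 2.94. Prg4 at 2d 4h stayed between 5.06 and 6.75 on the log2 scale, Aspn at 4d 24h between 5.55 and 6.44, while Fmod at 4d 4h dropped to 0.49 within fibroblast-like cells and Ogn at 4d 24h to 0.12 within osteoblast-like cells. In osteoblast-like cells the number of members called higher was 0, 1 and 0 in the 3 pairs in order of time, in place of 3 in the whole class. This stands beside 4.92%, 7.56% and 5.40% of all genes tested in those cells. In the whole class with a minimum of 5 UMIs it was 6 at 4d 24h, beside 21.4% of 14410 genes. Among those 6 was Prg4, with 2 UMIs in TO and 3 in TOE. The summed proteoglycan ratio depended more on the processing. Its log2 values at 2d 4h, 4d 4h and 4d 24h were 0.33, 0.23 and 0.14 with the low-UMI cluster counted, 0.20, -0.01 and 0.04 as a mean of cells, and 0.50, 0.02 and -0.08 within osteoblast-like cells. Median-centred scaling gave 0.45 in the 2d 4h pair and -0.12 in the 4d 24h pair, and leaving out the top cell gave 0.24 at 2d 4h. At 4d 4h it was 0.24 under the stricter filter, 0.26 with doublets kept, 0.25 without sub-clusters led by blood-cell genes (chosen after seeing the data), and -0.10 within fibroblast-like cells. That fibroblast-like value was -0.19 under the stricter filter and -0.22 with doublets kept. Causes were not tested. The 3 pairs matched by day and hour were each compared on their own, and a fit over them with day and hour as the block was not run. With 62 to 507 stromal cells per library, values of Chad, Prg4, Dpt and Eln rest on few cells.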

Other observations

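The locus of Ogn, Omd, Aspn and Ecm2 gave a pattern in cells outside the stroma. In the GRCr8 annotation Aspn and Ogn lie within Cenpp, a centromere protein gene, on the opposite strand. Among B-cell-like cells thinned to 2000 UMIs, Aspn was found in 3.68% of the 4707 cells with a Cenpp UMI and in 0.554% of the 39018 cells without. Ogn was found in 2.59% and 0.666%, Omd in 0.786% and 0.118%, and Ecm2 in 2.12% and 0.559%. Lum, at another locus, was found in 0.807% and 0.969%, and Dcn in 0.467% and 0.628%. In thinned mesenchymal-like cells, Aspn was found in 22.2% of cells with a Cenpp UMI and 25.3% of those without. These are values from the same cells, with no test, and their cause was not tested.

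Within the monocyte-marker clusters, Prg4 in the cluster led by Pilrb1 stood at 39.5 CPM in TO and 98.7 CPM in TOE at 2d 4h, and at 58.9 and 80.7 CPM at 4d 4h. The cluster led by Slc10a6 had 33.5 and 71.7 CPM, and 55.3 and 79.5 CPM, in the same order. Each value comes from 1 library, and the differences were not tested.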
